A study of Mus musculus with 12 samples.

Results

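The replication-dependent histone genes lie in clusters and encode the bulk of the core histones H2A, H2B, H3 and H4 and most of the linker histones H1. They were taken as the rows of the deposited table whose RefSeq ID maps to a clustered histone gene, by older symbol (Hist1h to Hist4h) or by current symbol (H1f1 to H1f6, H2ac, H2bc, H3c and H4c with a number), and which are above 0 in at least 1 library. That gave 45 of 19746 entries, namely 5 H1, 12 H2A, 12 H2B, 7 H3 and 9 H4 genes, of which 34 lie on mouse chromosome 13, 8 on chromosome 3, 2 on chromosome 11 and 1 on chromosome 6. As a check on the label, 30 of the 45 annotated transcripts carry the histone stem-loop described with the sequences.

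The study collected 12 libraries, 1 in each group, from C57BL/6 mouse cells. Mettl3-KO ESCs and WT ESCs are embryonic stem cells, either lacking Mettl3 (the catalytic subunit of the enzyme complex that writes m6A on mRNA) or wild type, kept in N2B27 with LIF and the 2i inhibitors CHIR99021 and PD0325901. Mettl3-KO EBs and WT EBs are embryoid bodies, aggregates of differentiating cells made from such ESCs and grown in serum-containing MEF medium for 8 to 21 days, with the exact day of each library not stated. Each of these 4 conditions was sampled 0, 4 and 8 h after the transcription blocker Actinomycin was given, so later levels show what was left of the RNA present at 0 h. The labels do not say whether the 3 times of a condition come from 1 culture, whether KO cells are 1 clone, or which part of Mettl3 was deleted. p-values therefore measure only how the 3 times of each condition scatter around a straight line, and hold no spread between cultures.

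Replication-dependent histone mRNAs are the one large class of animal mRNAs that normally end without a poly(A) tail. They end just after a conserved stem-loop, which SLBP binds and behind which the U7 small nuclear ribonucleoprotein directs cleavage. They are made in S phase and are degraded quickly when DNA synthesis stops. ESCs divide fast and spend much of their cycle in S phase, while cells that leave the cycle can switch to polyadenylated forms of some histone genes. The libraries measured here were made from poly(A)-selected fragments: per the labels' protocols, RNA was cut to a mean of 300 nucleotides, fragments bound to poly dT beads were kept, and cDNA was primed with an oligo of 18 T. The levels are therefore those of histone RNA with a tail or with an A-rich stretch, and not of all histone mRNA.

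The stem-loop and the bases before it are shown for the members on which the results turn. The histone stem-loop, spelled as GGNNCT, the loop NTTN and AGNNCC in 1 run, was searched on the transcript strand after the stop codon of the members. It was found in 30 of 45 members. Other coding transcripts were searched over their whole length, and 76 of 18738 held it, which is 0.406%. The 15 members without one include models that end at or near the stop codon, such as H2ac15, H2ac10, H2ac22 and H2ac1, so that no match says nothing about the gene itself. The sequences are from GENCODE transcripts on build GRCm38, written 5′ to 3′ on the gene's strand, with the 16 bases of the stem-loop in capitals, 11 bases before it and 3 after it. Of the first 8, all but H2ac18 had a level that fell after Actinomycin by the test given with the slopes, and the last 4 had no called fall.
H2ac23: aaaaaaaaaaaGGCTCTTTTCAGAGCCatc
H2ac4: accaaaacaaaGGCTCTTTTCAGAGCCacc
H2ac8: aaaaaaacaaaGGCTCTTTTCAGAGCCatt
H2ac6: tcaaacccaaaGGCTCTTTTCAGAGCCccc
H2aw: cagacaccaaaGGCTCTTTTCAGAGCCacc
H2ac18: gctcctaaaaaGGCTCTTTTCAGAGCCacc
H2bc8: cctaacccaaaGGCTCTTTTCAGAGCCacc
H4c8: acaaaaccaaaGGCCCTTTTCAGGGCCgcc
H4c9: tgctacttaaaGGCCCTTTTTAGGGCCacc
H4c2: ctgttacaaaaGGTCCTTTTCAGGACCact
H1f2: acaatccaaaaGGCTCTTTTCAGAGCCacc
H3c1: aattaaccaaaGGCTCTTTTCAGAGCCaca
These sites lie in the 3′ UTRs of single-exon genes. The H2ac23 site is at chr13:21810887-21810916 on the plus strand, H2ac4 at chr13:23751561-23751590 (plus), H2ac8 at chr13:23570665-23570694 (minus) and H2ac6 at chr13:23683474-23683503 (minus). H2aw is at chr11:58955161-58955190 (plus), H2ac18 at chr3:96246021-96246050 (plus), H2bc8 at chr13:23571832-23571861 (plus) and H4c8 at chr13:23531447-23531476 (plus). H4c9 is at chr13:22040963-22040992 (minus), H4c2 at chr13:23757355-23757384 (plus), H1f2 at chr13:23739501-23739530 (plus) and H3c1 at chr13:23761887-23761916 (minus). The H2ac24 site, at chr13:21833026-21833055 on the minus strand, has the same letters as H2ac23. The transcripts of H2ac23 and H2ac24 share 93.5% of the 50-base windows of H2ac23, so their levels cannot be told apart with certainty, and the 2 entries may hold the same reads. Other members share such windows with members too: 80.5% of those of H2ac22, 75.1% of H2ac10, 57.5% of H2ac4 and 49.7% of H2bc8. The share was 2.00% for H2aw and 1.47% for H2ac1. Counts of members are therefore not counts of independent genes.

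In untreated cells the H2A genes made up most of the clustered histone signal. Levels are the deposited normalized values per entry, in the table's own units, with no scaling for length. The 45 members summed to 12104 in Mettl3-KO ESCs, against 11085 in WT ESCs, and to 6924 in Mettl3-KO EBs, against 6013 in WT EBs. H2A genes held 72.1% of that sum in Mettl3-KO ESCs, against 73.9% in WT ESCs, and 68.1% in Mettl3-KO EBs, against 67.9% in WT EBs. The split between classes was thus within a few percentage points in all 4 conditions. H2B genes held 15.8% in Mettl3-KO ESCs, against 12.6% in WT ESCs, and 18.8% in Mettl3-KO EBs, against 18.9% in WT EBs. H4 genes held between 7.22% and 8.65% in the 4 conditions, H3 genes between 1.69% and 4.14% and H1 genes between 2.05% and 3.18%.

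**Figure D1:**
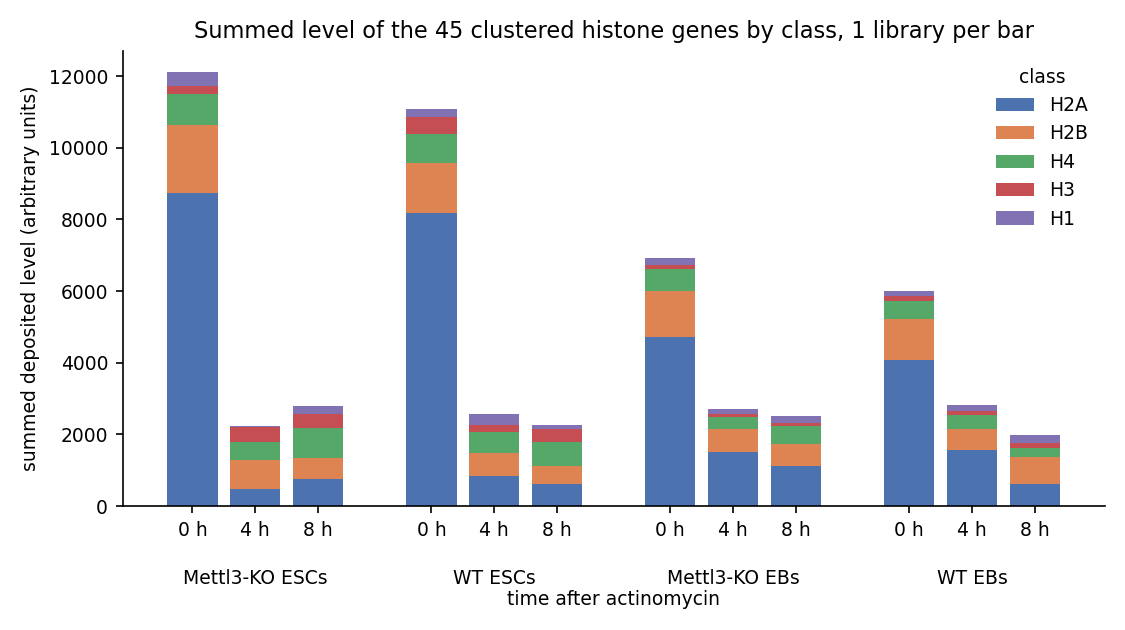
Summed deposited level of the 45 clustered histone genes (vertical axis, arbitrary units) in each of the 12 libraries, stacked by class, with time after Actinomycin along the horizontal axis. The H2A part (blue) fell to 481 at 4 h in Mettl3-KO ESCs, against 8727 at 0 h, while the H4 part (green) stood at 493 at 4 h, against 874 at 0 h.

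Every H2A gene was higher at 0 h than any H3 gene on the mean of the 4 untreated libraries. That mean ran from 75.4 (H2ac21) to 1082 (H2ac23) over the 12 H2A genes with a median of 497. Over the 12 H2B genes it ran from 5.31 (H2bc18) to 977 (H2bc8) with a median of 28.0, so that H2bc8, 1 core histone gene of 12, stood far above the rest of its class. Over the 9 H4 genes it ran from 2.60 (H4c14) to 418 (H4c8) with a median of 20.9, and over the 7 H3 genes from 10.4 (H3c13) to 58.5 (H3c8) with a median of 26.7. The 5 H1 genes, which encode linker histones, ran from 14.1 (H1f1) to 97.6 (H1f5) with a median of 29.4.

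Low members lay near the level of genes that these cells should not use. As a yardstick, 1426 genes of olfactory, vomeronasal and trace amine receptor, keratin-associated protein and defensin families were above 0 in 6.80% to 9.61% of cases in ESC libraries and in 26.7% to 36.2% in EB libraries. In Mettl3-KO ESCs 24, 22 and 22 members at 0, 4 and 8 h exceeded the 95th percentile of those genes, against 37, 38 and 25 in WT ESCs. In Mettl3-KO EBs 19, 17 and 17 members did, against 20, 16 and 7 in WT EBs. The WT EB library of 8 h was the shallowest, with 208874 read equivalents, where a read equivalent is 1 read as inferred from the steps of the values, and the deepest, the Mettl3-KO EB library of 0 h, had 666805. The 95th percentile was at 44.6 to 71.4 units in EB libraries, and levels under it could not be separated from that background.

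Before any change over time, neighbours that start back to back were not alike in level. In 5 places an H2A and an H2B gene start within 1000 bases of each other on opposite strands. At 0 h the H2A gene was higher in 4 of the 5 pairs on the mean of the 4 conditions: 1076 for H2ac24 beside 32.6 for its H2B neighbour, 576 for H2ac6 beside 207 for H2bc4, 314 for H2ac22 beside 46.8 for H2bc22, and 143 for H2ac1 beside 14.9 for H2bc1. The exception was H2ac8, at 551, beside H2bc8, at 977, whose starts lie 179 bases apart. Thus the gap between classes was also present within 4 of the 5 back-to-back pairs.

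The A-rich stretch before the stem-loop was longest in the members with the highest levels. Among the 18 bases before the stem-loop, H2ac23 and H2ac24 have 16 A, with an unbroken run of 12, and only 0.0209% of all 18-base windows in other coding transcripts hold at least as many. H2ac4 has 12 A and H2ac8 has 11. The median count was 11 over 7 H2A genes with a stem-loop, 7.5 over 6 H2B genes, 6 over 5 H3 genes, 6 over 9 H4 genes and 8 over 3 H1 genes. The 10 members with at least 9 A had a median level of 485 at 0 h (mean of the 4 conditions), against 29.8 in the 20 members with fewer. H2A genes were 5 of those 10 and 2 of the 20, so this split is also a split by class. Outside H2A, those with at least 9 A were at 418 (H4c8), 46.9 (H4c4), 23.5 (H2bc14), 14.5 (H1f6) and 10.8 (H2bc3). Across the 30 members Spearman's rho between the A count and the mean level at 0 h was 0.59, and 0.38 over the 23 members that are not H2A. These points share their libraries, and near-identical members are not independent.

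H2ac18, with 6 A before the stem-loop, had a mean level of 348 at 0 h, and H2bc8, with 7 A, had 977, so high levels were not limited to A-rich sites. H4c4, H2bc14 and H2bc3 have 9 A each and averaged 46.9, 23.5 and 10.8 at 0 h. The part of the A-rich stretch in the levels was not tested. A poly(A) signal (AATAAA or ATTAAA) followed the stem-loop in 15 of the 30 transcripts, whose median level over the 12 libraries was 43.0, against 43.5 in the 15 without one. Many of those 15 models end soon after the stem-loop, such as H2ac24 after 3 bases, H2ac4 after 11 and H2ac23 after 31. In such models the lack of a signal says nothing about the gene, so the 2 medians do not compare genes with and without one.

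**Figure D2:**
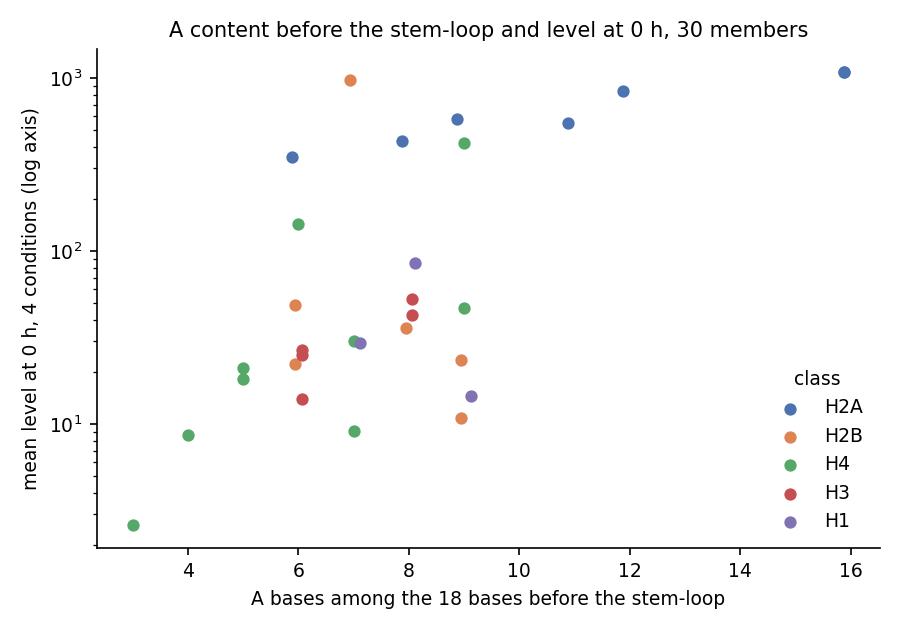
Mean deposited level at 0 h over the 4 conditions (vertical, log axis, arbitrary units) against the number of A among the 18 bases before the stem-loop (horizontal), 1 point per member, coloured by class. All 7 H2A genes with a stem-loop lie above 300 units, from 6 to 16 A, and H2bc8 lies with them at 7 A.

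After Actinomycin the clustered histone signal was lower at 4 h than at 0 h in all 4 conditions, and a smaller share was left in ESCs than in EBs. In Mettl3-KO ESCs the summed level of the 45 members stood at 18.5% of its 0 h value at 4 h (95% interval 14.1 to 23.8) and at 23.2% at 8 h (18.6 to 28.7). In WT ESCs it stood at 23.3% (18.7 to 28.8) and 20.5% (15.7 to 26.4). At 8 h the interval of each genotype held the other's value. At 4 h the Mettl3-KO interval held the WT value of 23.3%, and the WT interval, from 18.7%, narrowly missed the Mettl3-KO value of 18.5%. The sum hardly moved between 4 and 8 h. In Mettl3-KO EBs 39.3% was left at 4 h (33.8 to 45.5) and 36.2% at 8 h (30.8 to 42.3), and in WT EBs 47.0% (39.2 to 56.2) and 33.0% (26.6 to 40.8). These intervals apply an exact formula to read equivalents that are not whole counts, so they are approximate. They cover counting error only and hold no spread between cultures. Members that may hold the same reads were summed as if separate, so the intervals may be too narrow.

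All other entries summed changed far less on the deposited scale, except in WT EBs. Their sum stood at 105% and 106% of the 0 h value at 4 and 8 h in Mettl3-KO ESCs, against 101% and 91.3% in WT ESCs. It stood at 97.2% and 88.4% in Mettl3-KO EBs, against 72.9% and 44.2% in WT EBs. In WT EBs the whole table was thus lower at later times, and with columns set to equal totals the histone share left there was 64.5% at 4 h and 74.7% at 8 h.

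Most of the drop in the sum lay in the H2A class. H2A genes summed to 8727, 481 and 761 at 0, 4 and 8 h in Mettl3-KO ESCs, and to 8187, 831 and 606 in WT ESCs. That left 5.51% and 8.72% in Mettl3-KO ESCs, against 10.1% and 7.40% in WT ESCs. In EBs more was left, 32.3% and 23.9% in Mettl3-KO EBs, against 38.6% and 14.9% in WT EBs. With equal column totals the H2A share left at 8 h was 8.22% in Mettl3-KO ESCs, 8.11% in WT ESCs, 27.0% in Mettl3-KO EBs and 33.8% in WT EBs.

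All 12 H2A genes were below their own 0 h level at both 4 and 8 h in all 4 conditions, a pattern seen in 9.14% of the 18858 entries above 0 in any library. The count covers H2ac21, whose mean level was too low for the fits described next. Several of these 12 genes share sequence and may share reads, so they are not independent. Among the 33 other members 3 did the same, which is 9.09%: H2bc8, H4c8 and the linker histone gene H1f5. The other 31 members, those that are neither H2A genes nor H2bc8 nor H4c8, showed no such drop as a sum. They stood at 141% and 168% of their 0 h sum at 4 and 8 h in Mettl3-KO ESCs, against 90.2% and 86.0% in WT ESCs, and at 86.7% and 111% in Mettl3-KO EBs, against 116% and 150% in WT EBs. In Mettl3-KO ESCs the 31 members summed to 1151 at 0 h and 1931 at 8 h, and most of that rise lay in H4c9 and H2bc4. H4c9 went from 165 to 627 there and H2bc4 from 208 to 447. The grouping of the 31 members was chosen after the values were seen and carries no test.

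H2ac23, a core H2A gene and the highest member, shows the course in each library. Its level at 0, 4 and 8 h was 1445, 83.8 and 118 in Mettl3-KO ESCs, and 1558, 94.0 and 98.1 in WT ESCs. It was 674, 176 and 200.3 in Mettl3-KO EBs, and 652, 172 and 55.2 in WT EBs. The 0 h libraries were the highest in each condition, and both ESC libraries of 0 h lay above both EB libraries of 0 h. H2bc8, a core H2B gene, was at 1585, 81.1 and 26.8 in Mettl3-KO ESCs, 781, 72.3 and 56.3 in WT ESCs, 825, 209 and 144 in Mettl3-KO EBs, and 715, 154 and 67.9 in WT EBs. For H2bc8 too, the 4 libraries of 0 h were above all 8 later ones. H4c8, a core H4 gene, was at 642, 49.7 and 87.4 in Mettl3-KO ESCs, 311, 47.5 and 61.5 in WT ESCs, 356, 96.8 and 95.4 in Mettl3-KO EBs, and 363, 109 and 31.0 in WT EBs.

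**Figure D3:**
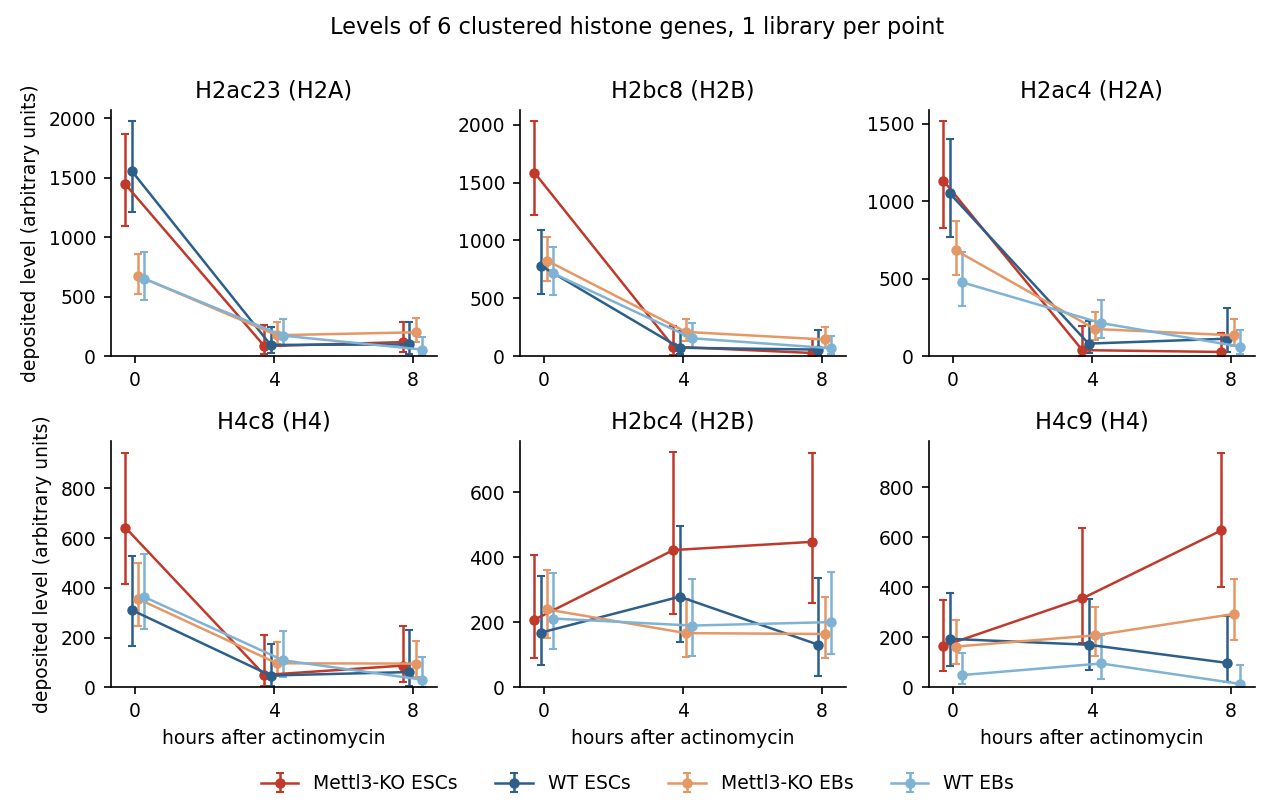
Deposited level (vertical, arbitrary units, a scale per panel) of 6 members at 0, 4 and 8 h after Actinomycin (horizontal), 1 library per point, with approximate 95% Poisson intervals on read equivalents. H2ac23, H2bc8, H2ac4 and H4c8 drop by 4 h in all 4 conditions, while H2bc4 and H4c9 show no such drop.

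In a limma fit with a straight line over the 3 times for each condition, 21 of 45 members passed a filter on a mean level of at least 42.9, and 12 of these 21 fell on the mean slope of the 4 conditions (adjusted p under 0.05 over 12704 entries), against 21.4% of all entries tested. None rose, where 0.236% of all entries rose. The filter used the mean over all 12 libraries, and a gene that was high at 0 h alone could pass by those libraries, so the count describes the tested members and is not support for the fall. The 12 were H2ac23, H2ac24, H2ac4, H2ac8, H2ac6, H2ac15, H2ac10, H2aw, H2ac22, H2ac1, H2bc8 and H4c8. H2ac15 had the steepest slope in limma, at -0.48 log2 units per hour (SE 0.073, adjusted p 0.00041), and H2bc8 followed with -0.46 (SE 0.055, adjusted p 7.7e-05). H2ac15 was listed at 0 in WT ESCs at 8 h, where the pseudocount alone set its value. It had 0.70 and 1.66 read equivalents in Mettl3-KO ESCs at 4 and 8 h, and 0.84 in WT EBs at 8 h. Its slope ran from -0.65 to -0.32 with 1 library left out.

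H2ac18 was the one H2A gene tested without a call, at -0.25 log2 units per hour (SE 0.11, limma adjusted p 0.12), and its level at 4 h was listed at 0 in Mettl3-KO ESCs. The median slope of the tested members was -0.31 log2 units per hour, beside -0.05 over all entries tested. A straight line understates a fall that is over by 4 h. Without the Mettl3-KO ESC library of 0 h, 6 members were called as falling and 1 as rising in limma, and without both EB libraries of 8 h 7 fell.

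**Figure D4:**
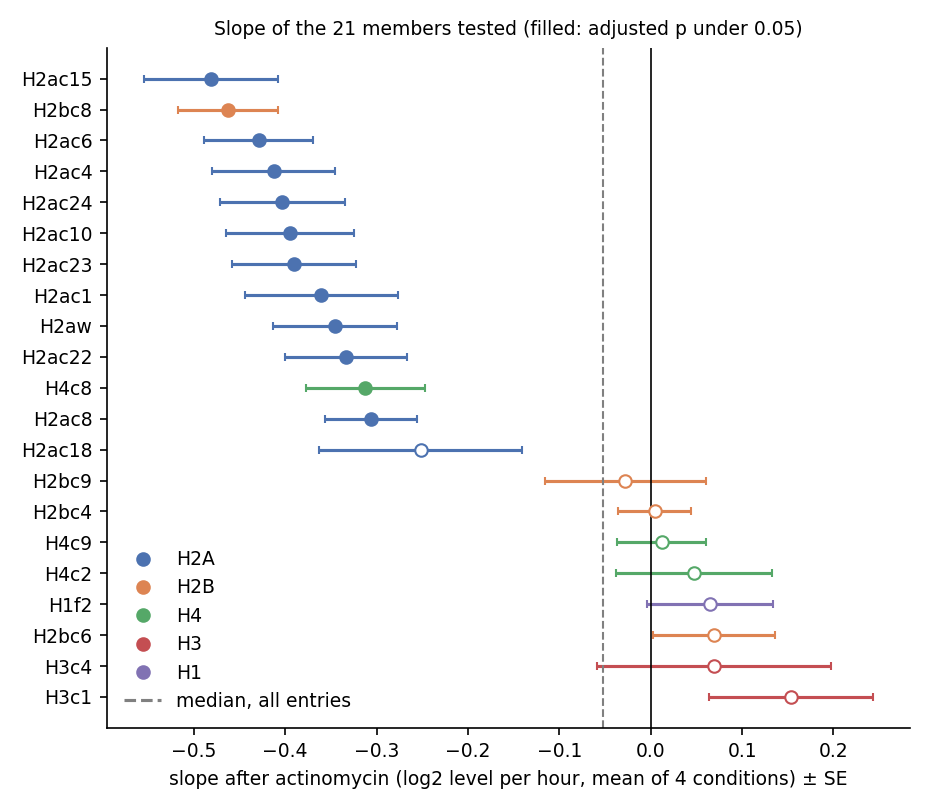
Mean slope over the 4 conditions (horizontal, log2 deposited level plus pseudocount per hour, with SE) of the 21 members tested, coloured by class, with filled points for an adjusted p under 0.05 in limma. The 12 filled points run from -0.48 to -0.31 and the dashed line marks the median of all entries at -0.05.

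Taken condition by condition, limma called 1 of the 21 members as falling in Mettl3-KO ESCs (0.0315% of all entries), against 5 in WT ESCs (5.35%), and 0 in Mettl3-KO EBs (0%), against 6 in WT EBs (26.7%). At an unadjusted p under 0.05 in either direction, 14 members passed in Mettl3-KO ESCs (10.2% of all entries), against 10 in WT ESCs (20%), and 3 in Mettl3-KO EBs (7.7%), against 10 in WT EBs (37.2%). The median slope of the tested members was -0.35 log2 units per hour in Mettl3-KO ESCs, against -0.31 in WT ESCs, and -0.21 in Mettl3-KO EBs, against -0.25 in WT EBs.

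Entry by entry, most members with enough signal lay far under the typical transcript. Among entries with at least 10 read equivalents at 0 h, chosen alike for histones and all others, the median share left at 4 and 8 h was 5.28% and 6.37% over 12 members in Mettl3-KO ESCs, where the 6277 other entries had medians of 95.2% and 90.2%. It was 8.46% and 8.21% over 12 members in WT ESCs, beside 83.5% and 68.1% over 6380 other entries. In EBs the members stood closer to the rest, at 26.9% and 23.3% over 14 members in Mettl3-KO EBs, beside 84.8% and 72.1%, and at 32.3% and 12.9% over 13 members in WT EBs, beside 59.3% and 34.4%. A choice on the 0 h level favours entries that were high at 0 h by chance, in both sets.

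**Figure D5:**
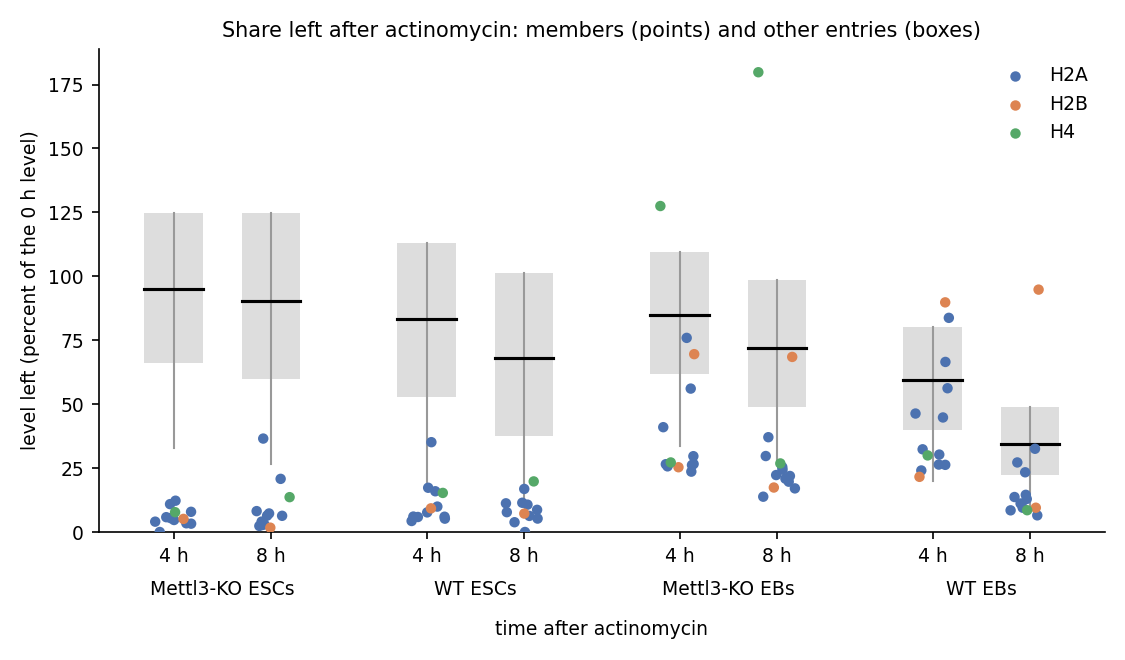
Level left at 4 and 8 h as a percent of the 0 h level (vertical) for members with at least 10 read equivalents at 0 h (points, coloured by class) and for all other such entries (grey box from the 25th to the 75th percentile, black line at the median, thin line down to the 5th percentile), by condition. Members lie mostly under the boxes in ESCs and in Mettl3-KO EBs, and overlap the box at 4 h in WT EBs.

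H2bc4, H4c9 and H1f2 are the highest H2B, H4 and H1 members by mean level that had no called fall. H2bc4, a core H2B gene with a transcript of 2 exons, was at 208, 422 and 447 at 0, 4 and 8 h in Mettl3-KO ESCs, 168, 279 and 131 in WT ESCs, 240, 167 and 164 in Mettl3-KO EBs, and 212, 190 and 200.5 in WT EBs. Its 12 levels overlap between all times. The annotated H2bc4 transcript holds no stem-loop and does hold a poly(A) signal, and its slope was 0.00 log2 units per hour (SE 0.040, limma adjusted p 0.96). Its back-to-back neighbour H2ac6, whose start is 239 bases away, had a slope of -0.43 (SE 0.060, limma adjusted p 0.00021). The H2ac6 transcript also holds poly(A) signals, 3 of them, after its stem-loop. Of the 9 tested members whose transcript holds such a signal, limma called 4 as falling, where 21.4% of all entries fell.

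H4c9, a core H4 gene, was at 165, 355 and 627 at 0, 4 and 8 h in Mettl3-KO ESCs, and 194, 170 and 97.5 in WT ESCs. In EBs it was at 163, 208 and 293 in Mettl3-KO EBs, and 49.1, 95.3 and 13.7 in WT EBs. The level was higher with each later time in both knockout conditions and in neither wild-type one. The KO minus WT difference in its slope was 0.35 log2 units per hour in ESCs (SE 0.14, limma adjusted p 0.40) and 0.27 in EBs (SE 0.14, limma adjusted p 0.34), so neither passed. H1f2, a linker histone gene, was at 117, 19.6 and 205 in Mettl3-KO ESCs, 45.9, 99.0 and 56.3 in WT ESCs, 74.1, 89.1 and 111 in Mettl3-KO EBs, and 105, 102 and 155 in WT EBs, with a slope of 0.07 (SE 0.069, limma adjusted p 0.57).

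The remaining tested members had low levels. H3c1 and H3c4, the 2 core H3 genes that passed the filter, had mean levels of 44.6 and 45.7 over the 12 libraries and were listed at 0 in some of them. Their slopes were 0.15 (SE 0.090, limma adjusted p 0.26) and 0.07 log2 units per hour (SE 0.13, limma adjusted p 0.76). H2bc6 and H2bc9, core H2B genes, had slopes of 0.07 (SE 0.066, limma adjusted p 0.52) and -0.03 (SE 0.088, limma adjusted p 0.87). Of the 24 members under the filter, the highest mean level was 41.1 (H2bc14) and the lowest 3.67 (H2bc18).

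Comparing genotypes in ESCs, limma called 0 of the 21 members in the level averaged over the 3 times, where 14.1% of all entries were called (10.9% higher and 3.27% lower), and 3 members had an unadjusted p under 0.05. The median difference of the members was 0.00 on the log2 scale, beside 0.18 over all entries. A fall that is over by 4 h counts as scatter around the straight line and widens the SE, which was 0.63 for H2ac23. The lack of calls therefore does not show that levels were equal. The summed level at 0, 4 and 8 h was 12104, 2236 and 2806 in Mettl3-KO ESCs, against 11085, 2580 and 2276 in WT ESCs, so the order of the genotypes turned between times. Among the H4 genes, H4c9 had a difference of 1.13 (SE 0.45, limma adjusted p 0.11) and H4c2 one of -1.90 (SE 0.79, limma adjusted p 0.13). H4c2 was at 21.1, 22.2 and 41.3 in Mettl3-KO ESCs, against 84.9, 128 and 177 in WT ESCs, and these levels do not overlap. H4c2 passed the filter by those WT ESC libraries, so its values are not support for a difference.

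In EBs, limma called 1 of the 21 members as higher in Mettl3-KO than in WT, where 7.66% of all entries were higher, and none as lower, where 1.56% were lower and 9.22% were called in either direction. H4c9 was the one, at 2.13 log2 units higher in Mettl3-KO EBs (SE 0.45, limma adjusted p 0.0071), with levels from 163 to 293 in Mettl3-KO EBs, against 13.7 to 95.3 in WT EBs. The call was lost, with the difference between 1.11 and 2.08, when any one of the EB libraries of 0 or 8 h was left out. The median difference of the 21 members was 0.10, beside 0.09 over all entries. The H2A genes summed to 4715, 1522 and 1125 in Mettl3-KO EBs, against 4084, 1577 and 610 in WT EBs. Endoderm markers differed between these EBs as well: the 9 markers together stood at 2094 to 3282 in Mettl3-KO EBs, against 7893 to 15184 in WT EBs, and 5 of the 6 that passed the filter were lower in Mettl3-KO EBs in limma. Markers high in WT EBs alone, such as Ttr and Apoa1, passed the filter by those libraries. That count therefore describes the markers tested and is not support for the difference. The 7 naive pluripotency markers summed to 5321 to 15503 in Mettl3-KO EBs, against 901 to 9992 in WT EBs, with 5 of 7 higher in limma. The part of either marker list in the histone values was not tested.

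Slopes after Actinomycin did not differ detectably by genotype. For the KO minus WT slope, limma called 0 of 21 members in ESCs (0.0394% of all entries called) and 0 of 21 in EBs (1.19%), and at an unadjusted p under 0.05 the counts were 1 and 0. The median difference in slope over the members was 0.01 log2 units per hour in ESCs and 0.06 in EBs, beside 0.04 and 0.08 over all entries. None of the 11 H2A genes tested reached an unadjusted p under 0.05 in either cell type.

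EBs held less clustered histone signal than ESCs at 0 h, and more was left after Actinomycin. At 0 h the summed level in Mettl3-KO EBs was 0.572 times that in Mettl3-KO ESCs, and in WT EBs 0.542 times that in WT ESCs, while column totals were 0.677 and 0.754 times as high. At 4 h the order turned, with 1.22 times in the knockout pair and 1.10 times in the wild-type pair, and at 8 h EBs were again below ESCs, with 0.892 times and 0.872 times in the same pairs. In bulk samples, fewer cells of a type and less RNA per cell cannot be told apart. Each of these ratios compares single libraries and carries no test.

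With the 3 times averaged in limma, 2 of the 21 members were lower in WT EBs than in WT ESCs, where 29.1% of all entries were lower, and none was higher, where 3.49% were higher and 32.6% were called in either direction. They were H4c9, at -1.61 on the log2 scale (SE 0.45, limma adjusted p 0.012), and H4c2, at -2.65 (SE 0.79, limma adjusted p 0.017). H4c2 was at 14.7, 12.2 and 11.3 in WT EBs, against 84.9, 128 and 177 in WT ESCs. Its mean level of 43.5 passed the filter of 42.9 by the WT ESC libraries, since it was at most 41.3 in every other library. Its WT EB levels were 1 read equivalent or less. The H4c2 call is therefore not support for a lower level in WT EBs. Under each of the 3 other scalings both calls were lost, with the directions kept. When either the 0 h or the 8 h library of WT EBs was left out, the H4c9 difference was -0.59, and neither gene was called. H4c9 also lost its call without the WT ESC library of 8 h, at -1.81, and H4c2 without the WT ESC library of 0 or 8 h, at -2.69, or the WT EB library of 4 h, at -2.63. The median difference of the members was 0.04, beside -0.50 over all entries.

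Between Mettl3-KO EBs and Mettl3-KO ESCs limma called 0 of the 21 members, where 24.1% of all entries were called (0.929% higher and 23.2% lower), and 2 had an unadjusted p under 0.05. The median difference was 0.26, beside -0.61 over all entries. The EB minus ESC difference in slope was also called for 0 of 21 members (0.00787% of all entries called), with 0 at an unadjusted p under 0.05, and its median was 0.14 log2 units per hour, beside -0.05 over all entries.

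Genes that make, process and handle histone mRNA were read from lists beside the members. Slbp, the stem-loop binding protein gene, fell after Actinomycin at -0.22 log2 units per hour (SE 0.038, limma adjusted p 0.00091), and its level differed in neither genotype comparison (limma adjusted p 0.93 in ESCs and 0.90 in EBs). At 0, 4 and 8 h Slbp was at 766, 405 and 371 in Mettl3-KO ESCs, 512, 711 and 274 in WT ESCs, 492, 337 and 161 in Mettl3-KO EBs, and 821, 363 and 62.3 in WT EBs. Of the 24 genes of histone mRNA 3′ processing and turnover tested, 4 were higher and 0 lower in Mettl3-KO than in WT ESCs, where 10.9% of all entries were higher, and 2 were higher and 0 lower in EBs, where 7.66% were higher. These counts are near the shares over all entries. Lsm10, a subunit of the U7 particle, was higher by 3.26 log2 units in Mettl3-KO ESCs (SE 0.31, limma adjusted p 1.2e-05) and by 2.67 in Mettl3-KO EBs (SE 0.31, limma adjusted p 6.3e-05). Cstf1, a cleavage stimulation factor subunit shared with poly(A) site cleavage, was higher by 2.09 in ESCs and 2.29 in EBs (SE 0.31 each, limma adjusted p 0.00054 and 0.00026).

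The genes listed as replication-independent histones had a median slope of -0.04 log2 units per hour after Actinomycin. Of 11 tested, 3 fell and none rose, which is near the 21.4% of all entries that fell: H1f0 at -0.15 (SE 0.033, limma adjusted p 0.0060), H2ax at -0.09 (SE 0.024, limma adjusted p 0.017) and H2az1 at -0.06 (SE 0.016, limma adjusted p 0.011). In EBs 4 of the 11 were higher in Mettl3-KO than in WT (7.66% of all entries), among them H2aj, an H2A variant gene, by 2.06 log2 units (SE 0.25, limma adjusted p 9.4e-05). In ESCs 2 were lower in Mettl3-KO (3.27% of all entries), namely H3f3b, one of the genes of the replacement histone H3.3, at -1.48 (SE 0.23, limma adjusted p 0.00070), and H2az2, an H2A.Z gene, at -0.80 (SE 0.21, limma adjusted p 0.020).

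Of 30 S-phase genes tested, 16 fell after Actinomycin and none rose, with a median slope of -0.09 log2 units per hour, beside 21.4% falling and a median of -0.05 over all entries. Cdt1, which licenses replication origins, fell at -0.44 (SE 0.036, limma adjusted p 8.4e-06). Between EBs and ESCs 23 of the 30 were lower in Mettl3-KO EBs (23.2% of all entries) and 23 in WT EBs (29.1%). Of 11 histone chaperone genes tested, 8 fell after Actinomycin and none rose, beside the same 21.4%, among them Asf1a, a chaperone of H3 and H4, at -0.31 (SE 0.044, limma adjusted p 0.00024). Of 9 genes of cell cycle exit tested, 4 fell and none rose, again beside 21.4% of all entries, among them the CDK inhibitor gene Cdkn1a at -0.35 (SE 0.051, limma adjusted p 0.00029).

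Library facts that touch these values are few. Column totals differed by up to 3.02-fold, and the libraries held 208874 to 666805 read equivalents, of which the 45 members had 68.3 to 652. Mettl3 was at 98.1, 65.4 and 41.8 in Mettl3-KO ESCs, against 251, 64.8 and 113 in WT ESCs, and at 16.8, 40.7 and 83.9 in Mettl3-KO EBs, against 175, 86.0 and 77.4 in WT EBs. The groups overlap, and since the deleted part of Mettl3 is not given, a 3′ tag does not check the genotype labels. Naive pluripotency markers summed to 14599 to 28773 in Mettl3-KO ESCs, against 5742 to 28926 in WT ESCs.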

How the data were processed

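The data are 3′-end poly(A) RNA sequencing of 12 libraries, 1 per group. The authors deposited 1 table of normalized signal per RefSeq entry; per the submitters' processing notes, Bowtie and Bowtie2 2.1.0, CASAVA 1.8.2 and build mm10 were used, and the scaling is not stated there. Of 19746 entries, 19535 were matched to symbols by RefSeq ID and 98 by GENCODE, and 38 identical duplicates were dropped. The deposited signal moves in steps particular to a library; 50 steps were taken as 1 read equivalent, an inference, and whole counts were not recovered. The 95% intervals apply exact formulas to these fractional read equivalents, so they are approximate. They cover counting error only, since molecules are not told from PCR copies. Level differences and slopes were tested with limma 3.58.1 (R 4.3.3) on log2(level + 8.58), a pseudocount of 1 ppm of the average column sum that understates changes of low genes. The 12704 entries whose level averaged 42.9 (5 ppm) or more entered the fit. Its 8 coefficients are a mean level and a slope per hour in each of 4 conditions, with 4 residual degrees of freedom plus a prior worth 11.1. Adjusted p-values are Benjamini-Hochberg over all tested entries, with a threshold of 0.05. The fit was tested on simulated data. Named members are the 12 highest, those called and the highest of each class; from other lists Slbp and up to 3 called genes are named. The members and lists were chosen with earlier results of these data known. Alternatives changed scaling, pseudocount, filter, variance trend, time terms, libraries and summed members. Stem-loops were searched in GENCODE transcripts on GRCm38 with Python 3.11.15.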

Additional observations from a re-analysis of the deposited data

How the results depend on the processing

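Scaling, filter and single libraries moved some values. The number of members called in KO minus WT level in ESCs, 0 as reported, was 1 with a 5 ppm pseudocount, 2 with no filter, 1 without the variance trend and 0 to 1 with 1 library left out. In EBs, 1 as reported, it was 0 without the variance trend, 0 to 1 with 1 library left out and 0 without both EB libraries of 8 h, an alternative chosen after seeing the data. For EB minus ESC in WT, 2 as reported, it was 0 with equal column totals, 0 with median-ratio and 0 with ribosomal protein scaling, 4 with no filter, 0 to 2 with 1 library left out and 0 without both EB libraries of 8 h. For EB minus ESC in Mettl3-KO, 0 as reported, it was 1 with no filter and 0 to 2 with 1 library left out. The mean slope, 12 as reported, gave 12 under each other scaling, 7 to 13 with 1 library left out and 7 without both EB libraries of 8 h. These counts take both directions together, and the 7 without the Mettl3-KO ESC library of 0 h include 1 that rose. The 3 slope differences gave 0 calls in each of their 19 alternatives. No direction reversed among the results tabulated.

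The share of the summed level left at 8 h in Mettl3-KO ESCs was 17.4% with ribosomal protein scaling. In WT ESCs at 4 h it was 18.6% with that scaling, 18.1% over members past the filter and 30.4% without H2ac23 and H2ac24 (also added after seeing the data). In WT ESCs at 8 h it was 27.5% with median-ratio scaling, 14.8% over members past the filter and 26.5% without H2ac23 and H2ac24. In Mettl3-KO EBs at 8 h it was 44.8% with median-ratio scaling. In WT EBs at 4 h it was 64.5% with equal column totals, 68.2% with median-ratio and 56.3% with ribosomal protein scaling, and at 8 h 74.7%, 71.2% and 78.1%, with 24.8% over members past the filter. The causes were not tested. No paired analysis was possible because each group has 1 library. Depth limits single members: under 3 reads of the shallower libraries, a level could not be told from 0.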
